A study of Mus musculus and Rattus norvegicus with 12 samples.

Results

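Complex I of the mitochondrial respiratory chain is built from subunits encoded in the nucleus, whose gene symbols begin with Nduf, and from a few encoded in mitochondrial DNA. The gene group described here holds its nuclear subunits and the assembly factors that share the Nduf symbol. Members were taken by symbol alone, with pseudogene symbols left out, which gave 45 of 54087 symbols in the mouse table and 46 of 28909 in the rat table, with 44 in both. The mouse members were 7 core subunits, 29 accessory subunits, 7 assembly factors and the pair Ndufa4 and Ndufa4l2. The rat members were 7 core subunits, 28 accessory subunits, 8 assembly factors, the same pair and Ndufa10l1. All 45 mouse members and 45 of the 46 rat members passed the filter on low counts, and the exception was Ndufs6.

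RNA was sequenced in hearts and in cultured heart cells after targeting of Jmjd4, which encodes a JmjC-domain oxygenase. The cKO hearts (n = 3) came from mice with both Jmjd4 alleles floxed and the MCM transgene, a tamoxifen-inducible Cre driven in cardiomyocytes by the Myh6 promoter. The flox hearts (n = 3) came from mice with the same floxed alleles and no Cre, so an effect of Cre itself cannot be told apart from that of the deletion. Heart apex was taken 14 days after tamoxifen in both groups. Neonatal rat ventricular cardiomyocytes (NRVCs), isolated from Sprague-Dawley pups and depleted of quickly attaching cells, received an siRNA against Jmjd4 (siJmjd4, n = 3) or a control siRNA (siNC, n = 3) for 48 h. Separate isolations are not stated for the NRVC replicates, so p-values there cover the spread between these libraries, which may be technical.

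Complex I oxidises NADH, passes the electrons to ubiquinone and pumps protons across the inner mitochondrial membrane. Core subunits carry the flavin, the iron-sulfur clusters and the ubiquinone site, accessory subunits surround and stabilise them, and assembly factors help to build the complex and are not part of the finished enzyme. Heart muscle, which makes most of its ATP by oxidative phosphorylation, is rich in the complex.

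The libraries held 57174654 to 82187009 counts. Levels are given as CPM, counts scaled to a common library size after TMM, a method that aligns libraries on the bulk of their genes. Replicate 3 of the flox hearts stood apart from the other 5 heart libraries, with 1485 tested genes at 0 counts against 125 to 503, and a TMM factor of 0.4412 against 1.057 to 1.349. In the NRVCs, replicate 3 of siNC had 461 tested genes at 0 against 78 to 137. Results are therefore given with and without these control libraries. Jmjd4 itself was at 8.95, 4.92 and 9.63 CPM in cKO hearts and at 19.03, 8.04 and 16.85 CPM in flox hearts, and these ranges overlapped. In the libraries labelled siJmjd4 it was at 3.58, 3.43 and 3.52 CPM, against 3.46, 4.40 and 0.98 CPM with siNC, so a lower Jmjd4 level was not detectable there and the rat directions rest on the labels.

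Cell type markers differed between the hearts. The 8 cardiomyocyte markers summed to 28746 to 31785 CPM in cKO hearts and 43771 to 62801 CPM in flox hearts, and the 8 fibroblast markers to 2872 to 7447 CPM in cKO hearts and 796.3 to 1225 CPM in flox hearts. The cardiomyocyte gap was uneven. As a percentage of all counts these markers took 3.61% to 4.26% in cKO hearts, against 4.723% and 4.656% in flox hearts 1 and 2 and 2.77% in flox heart 3. Without flox heart 3, 4 of the 8 had a lower and 4 a higher fitted level in cKO hearts. Myh6, the main myosin heavy chain of the adult mouse heart, was at 12271, 8509 and 13190 CPM in cKO hearts, against 24019, 21425 and 3662 CPM in flox hearts. The 5 macrophage markers summed to 194.3 to 258.5 CPM in cKO hearts and 75.64 to 139.2 CPM in flox hearts. None of these 21 markers was at 0 in any heart library. In bulk tissue, fewer cells of a type and less RNA per cell cannot be told apart, and the part of cell composition in the values below was not tested. In the NRVCs the cardiomyocyte markers were all detected, at sums of 9658 to 11948 CPM with siJmjd4 and 12592 to 19081 CPM with siNC. Fibroblast markers summed higher than these in every NRVC library, at 42811 to 49467 CPM with siJmjd4 and 36166 to 44111 CPM with siNC.

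The first comparison asked how complex I genes differ between cKO and flox hearts. Over all members, the summed level was 4099, 7972 and 4242 CPM in cKO hearts 1, 2 and 3, against 8065, 8571 and 36909 CPM in flox hearts 1, 2 and 3. Flox heart 3 lay far above every other library, flox hearts 1 and 2 lay close together, and cKO heart 2 lay nearer to them than to cKO hearts 1 and 3. Of the 45 members, 44 had a lower fitted level in cKO hearts, with Ndufa4l2 the exception, and 43 did when libraries were scaled to total counts alone, which turned Ndufaf7. That scaling put the median over all genes at 0.54 on the log2 scale and gave the members a median of -0.72. At the threshold used throughout, an adjusted p under 0.05 by edgeR, none was called, while 0.138% of the 18094 genes tested were called lower and 0.37% higher. Unadjusted, 20 members had a p under 0.05. Counts at an unadjusted p are given here and below without the share over all genes, so they cannot be read as an excess. With the Wald test of DESeq2 on the same libraries, 7 members were called lower (Ndufs1, Ndufs4, Ndufs7, Ndufv2, Ndufa3, Ndufa5 and Ndufaf4) and none higher, against 4.37% of all genes called lower and 5.29% higher. Some members, Ndufa2 and Ndufb11 among them, got no p-value from DESeq2 and could not be called. The shares count all genes, with or without a p-value. The members' median log2 fold change was -1.75, where the median over all genes tested was 0.00.

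Leaving out flox heart 3 gave smaller values, and 1 member, Ndufs1, was called lower, against 2.93% of all genes, with 9 members at an unadjusted p under 0.05. The members' median log2 fold change was then -0.53, and 44 members still had a lower value in cKO hearts. Without flox heart 3 and cKO heart 2, 39 members were called lower, namely 7 of 7 core subunits, 28 of 29 accessory subunits, 3 of 7 assembly factors and Ndufa4, against 9.53% of all genes called lower. The members' median in that fit was -0.95, and 44 members were lower without overlap between the groups, against 31.3% of all genes. In the same fit 4 of 8 cardiomyocyte markers were called lower and 8 of 8 fibroblast markers higher. Leaving out cKO heart 2 removes the cKO library with the highest complex I sum, so that this fit widens the gap and narrows the cKO spread by construction. With all 6 hearts no marker of either list was called. Without flox heart 3 alone, 1 cardiomyocyte marker was called lower and 3 fibroblast markers higher. The share of all genes called higher is not given for the fits that leave out libraries, so the fibroblast counts cannot be read as an excess.

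**Figure D1:**
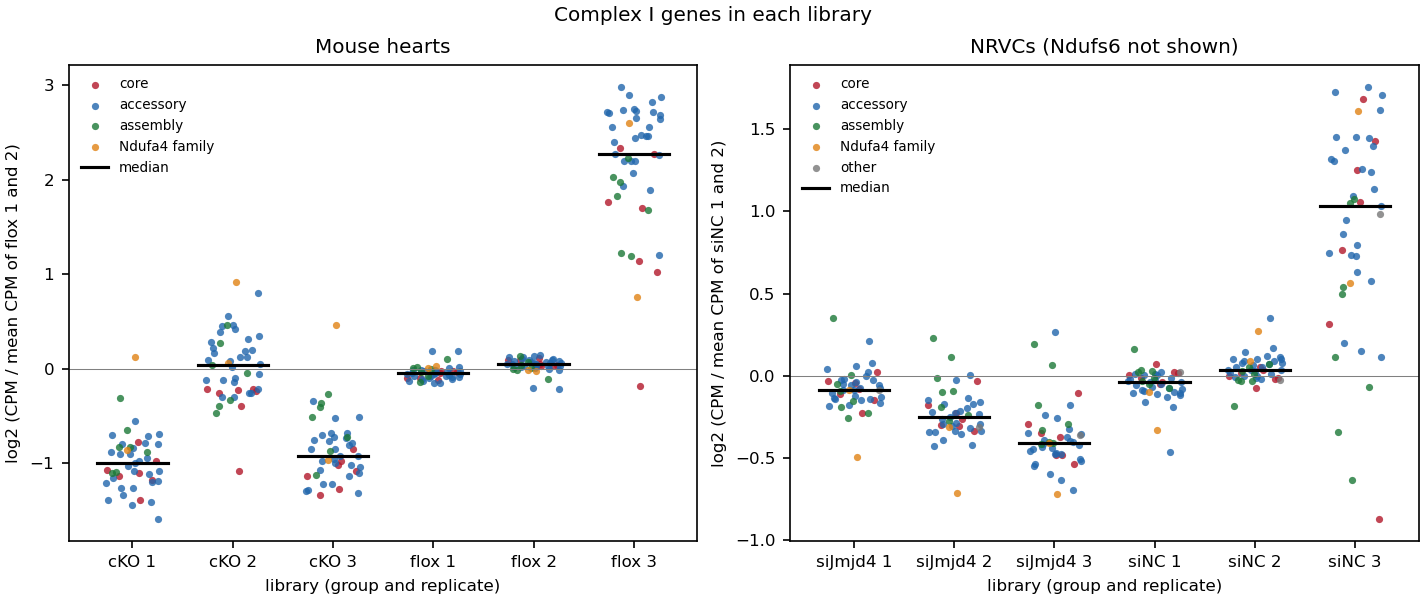
Each point is 1 complex I gene in 1 library, as the log2 of its CPM over the mean CPM of control replicates 1 and 2, for mouse hearts (left) and NRVCs (right), with black bars at the medians. Flox 3 has a median over 2 and siNC 3 a median near 1, while cKO 2 sits close to flox 1 and 2.

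The 7 core subunits had cKO and flox levels that did not overlap, all of them lower in cKO hearts, with or without flox heart 3. Over all genes tested, 11.2% were lower without overlap in the 6 libraries, and 22.9% without flox heart 3. In shares of total counts, 5 of the 7 were lower without overlap in the 6 libraries, against 3.7% of all genes, and 7 without flox heart 3, against 12.8%. Core levels summed to 1294, 2012 and 1227 CPM in cKO hearts, against 2568, 2794 and 6743 CPM in flox hearts. The median log2 fold change of the core was -1.59, -0.74 without flox heart 3, and -1.12 without flox heart 3 and cKO heart 2.

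Ndufs1, the large iron-sulfur subunit of the NADH-oxidising module, differed from the other members in being as high in flox heart 3 as in the rest of its group. It was at 298.1, 302.4 and 264.3 CPM in cKO hearts (288.3 ± 20.85, SD, n = 3), against 619.1, 663.4 and 562.8 CPM in flox hearts (615.1 ± 50.41, SD, n = 3). On this scale both groups were tight and far apart, but the place of flox heart 3 rests on its TMM factor. As a share of total counts, Ndufs1 took 0.0392%, 0.0343% and 0.0356% in cKO hearts, against 0.0654%, 0.0706% and 0.0248% in flox hearts, so that flox heart 3 lay below every cKO heart. Its log2 fold change was -1.09 (SE 0.33, edgeR adjusted p = 0.1919). Scaled to total counts alone, the value was -0.56 (SE 0.45, edgeR adjusted p = 0.5973). It was -1.15 (SE 0.21, edgeR adjusted p = 0.02553) without flox heart 3, and Ndufs1 was the member called there. With each library's trend with transcript length taken out, it was -1.34 (SE 0.24, edgeR adjusted p = 0.02184) in all 6 hearts. In the annotation used, the gene lies on chromosome 1 of GRCm38, from 63143596 to 63176833 on the minus strand, and 3.23% of the 75-base words of its transcripts also occur in another gene, Ino80dos.

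The flavoprotein subunits Ndufv1 and Ndufv2 sit beside Ndufs1 where NADH is oxidised. Ndufv1, which binds NADH and the flavin, was at 201.9, 296.3 and 171.1 CPM in cKO hearts, against 320.0, 374.0 and 767.0 CPM in flox hearts. Ndufv2, an iron-sulfur protein, was at 147.5, 271.1 and 128.2 CPM in cKO hearts, against 301.6, 345.7 and 1639 CPM in flox hearts. For both genes cKO heart 2 came close to the lowest flox heart, and flox heart 3 set the size of the difference. The log2 fold change was -0.63 (SE 0.29) for Ndufv1 and -0.82 (SE 0.35) for Ndufv2 once flox heart 3 was left out.

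Ndufs7 lies at the ubiquinone site and carries the last iron-sulfur cluster of the electron path. Ndufs7 was at 93.62, 187.0 and 125.2 CPM in cKO hearts, against 241.6, 250.6 and 797.8 CPM in flox hearts. Every cKO library lay below every flox library, and without flox heart 3 the log2 fold change was -0.86 (SE 0.31), not past the threshold. Ndufs3 and Ndufs8 belong to the same arm of the complex. Ndufs3 was at 101.5, 184.8 and 97.13 CPM in cKO hearts, against 200.3, 228.1 and 725.8 CPM in flox hearts. Ndufs8, which carries iron-sulfur clusters, was at 63.60, 124.1 and 80.15 CPM in cKO hearts, against 141.8, 147.4 and 697.2 CPM in flox hearts. For all 7 core genes the fit without flox heart 3 and cKO heart 2 gave log2 fold changes between -0.90 and -1.24. Each was called, against 9.53% of all genes called lower, in a fit that widens the gap by construction.

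**Figure D2:**
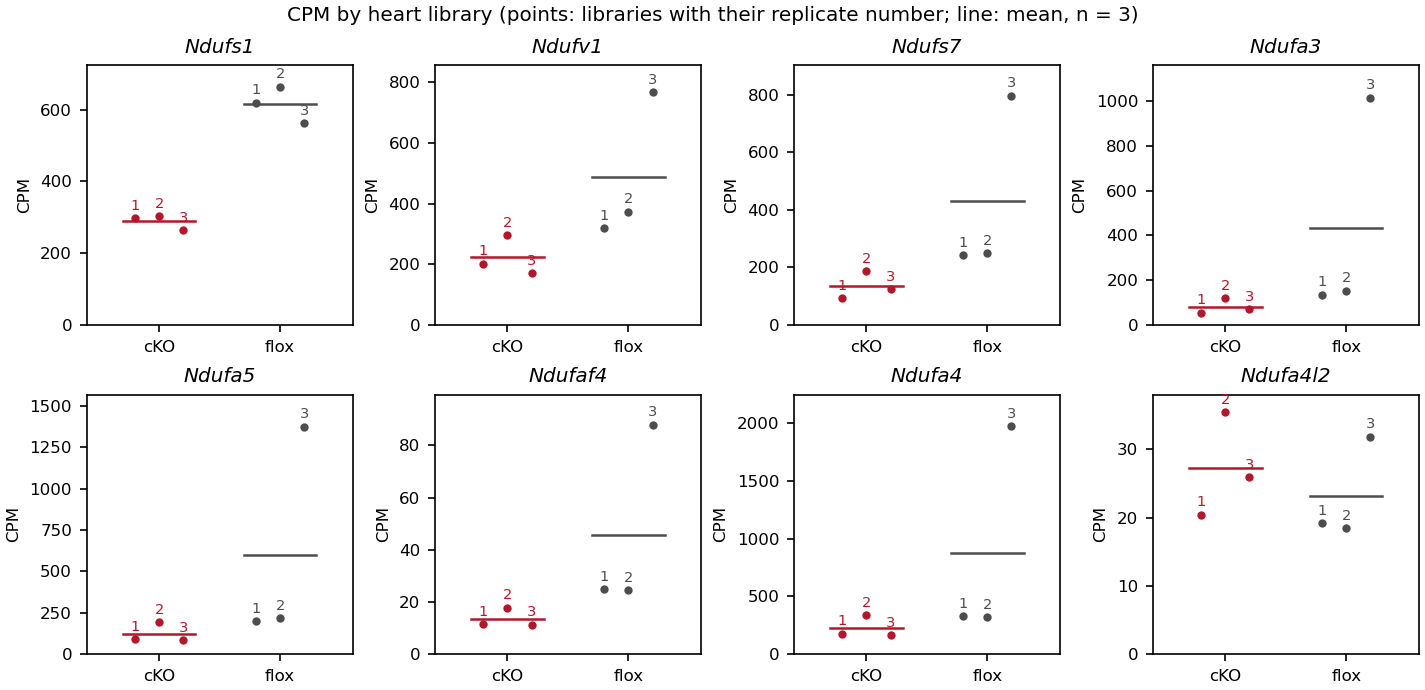
CPM (linear axis from 0) in each heart library for 8 complex I genes, cKO left and flox right, with points numbered by replicate and a line at the group mean (n = 3). On the TMM scale Ndufs1 separates the groups, which it does not do in shares of total counts, whereas flox 3 lies far above flox 1 and 2 for the other genes shown, apart from Ndufa4l2.

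The 29 accessory subunits all had a lower fitted level in cKO hearts, at log2 fold changes from -2.41 to -1.13 and a median of -1.78, with none called by edgeR. Their median was -0.47 without flox heart 3. Accessory levels summed to 2531, 5462 and 2739 CPM in cKO hearts, against 5024, 5305 and 27732 CPM in flox hearts. The sum in cKO heart 2 was thus above those of flox hearts 1 and 2, and 20 of the 29 subunits overlapped between the groups. The other 9 were lower in every cKO heart than in every flox heart, against 11.2% of all genes. In shares of total counts 5 were, against 3.7% of all genes. Without flox heart 3 there were again 9, against 22.9% of all genes. In shares of total counts there were again 5, against 12.8%.

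Ndufa3, a small subunit of the membrane arm, had the largest difference of the class in the fit of all libraries, and its size came from flox heart 3. It was at 54.16, 120.2 and 70.88 CPM in cKO hearts, against 135.1, 152.8 and 1017 CPM in flox hearts. The log2 fold change was -2.41 (SE 0.89, edgeR adjusted p = 0.2725), and -0.81 (SE 0.34) without flox heart 3. Ndufa5, a subunit of the ubiquinone module, was at 90.39, 191.8 and 85.25 CPM in cKO hearts, against 201.0, 216.5 and 1376 CPM in flox hearts. Its log2 fold change was -2.29 (SE 0.87, edgeR adjusted p = 0.2893), and -0.77 (SE 0.38) without flox heart 3. On the TMM scale both genes kept cKO and flox hearts apart, with cKO heart 2 just under flox heart 1. In shares of total counts Ndufa3 still did. Ndufa5 did not, at 0.02178% in cKO heart 2 and 0.02124% in flox heart 1.

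At the other end of the class, Ndufa10, an accessory subunit with a nucleoside kinase fold, had the smallest difference, at -1.13 (SE 0.48, edgeR adjusted p = 0.3385) on the log2 scale. It was at 240.9, 360.8 and 219.8 CPM in cKO hearts, against 422.3, 413.3 and 962.8 CPM in flox hearts, with no overlap. Ndufa12, an accessory subunit of the NADH-oxidising module and a paralog of the assembly factor Ndufaf2, was at 22.45, 117.9 and 27.25 CPM in cKO hearts, against 77.11, 58.61 and 324.7 CPM in flox hearts. Here cKO heart 2 exceeded both flox hearts 1 and 2, so that the groups overlapped. The log2 fold change of Ndufa12 was -1.46 (SE 0.91), -0.28 (SE 0.69) without flox heart 3, and -1.46 (SE 0.18, edgeR adjusted p = 0.006052) without flox heart 3 and cKO heart 2. Of its 75-base words, 14.6% also occur in Gm15920, so reads of the pair may be split.

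The remaining accessory subunits that the rule names were chosen for their place in the NRVC values. Ndufa11, of the membrane arm, was at 111.1, 210.8 and 142.6 CPM in cKO hearts, against 179.0, 182.9 and 952.4 CPM in flox hearts. It was the accessory subunit not called without flox heart 3 and cKO heart 2, at a log2 fold change of -0.52 (SE 0.15, edgeR adjusted p = 0.05944). Ndufb10, also of the membrane arm, was at 110.8, 304.2 and 128.7 CPM in cKO hearts, against 341.5, 260.4 and 1266 CPM in flox hearts. Both genes overlapped between the groups through cKO heart 2. Ndufb6, of the membrane arm, was at 46.43, 116.4 and 61.12 CPM in cKO hearts, against 97.64, 109.3 and 501.2 CPM in flox hearts. Smim27 shares 27.8% of the 75-base words of Ndufb6, so its counts are uncertain. Ndufc1, a small membrane subunit, was at 58.91, 126.5 and 61.05 CPM in cKO hearts, against 104.4, 128.2 and 647.0 CPM in flox hearts, again with overlap through cKO heart 2.

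The 7 assembly factors were the least abundant class. Per kilobase of median transcript length, their means ran from 3.742 to 12.96 CPM in cKO hearts and from 6.814 to 19.73 CPM in flox hearts 1 and 2. Among the core subunits named above, the means ran from 91.09 to 155.4 CPM per kilobase in cKO hearts and from 147.6 to 282.7 CPM per kilobase in flox hearts 1 and 2. In summed CPM the assembly factors were at 74.9, 122.6 and 83.54 in cKO hearts, against 126.3, 130.7 and 426.6 in flox hearts. All 7 had a lower fitted level in cKO hearts (6 of 7 with scaling to total counts alone), with a median log2 fold change of -1.29, none called by edgeR, and 3 of 7 without overlap, or 2 in shares of total counts. Over all genes tested, 11.2% were lower without overlap, and 3.7% in shares of total counts. Without flox heart 3 there were again 3 of 7, or 2 in shares, against 22.9% and 12.8% of all genes. The median of the class was -0.50 without flox heart 3.

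Ndufaf4, which works with Ndufaf3 on the ubiquinone module, was at 11.59, 17.85 and 11.33 CPM in cKO hearts, against 24.99, 24.51 and 88.03 CPM in flox hearts. Its groups did not overlap, and the log2 fold change was -1.75 (SE 0.59, edgeR adjusted p = 0.2345), or -0.86 (SE 0.25, edgeR adjusted p = 0.09176) without flox heart 3. Ndufaf3 was at 11.71, 25.28 and 15.23 CPM in cKO hearts, against 17.41, 19.37 and 86.42 CPM in flox hearts, and its log2 fold change without flox heart 3 was -0.08 (SE 0.33). Ndufaf1, a member of the assembly complex that builds the membrane arm, was at 16.04, 22.81 and 15.64 CPM in cKO hearts, against 28.60, 28.66 and 65.36 CPM in flox hearts. Every cKO heart lay below every flox heart for Ndufaf1, as for Ndufaf4 but not for Ndufaf3.

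Ndufaf5, which hydroxylates Ndufs7, was at 9.66, 13.07 and 12.96 CPM in cKO hearts, against 15.61, 18.85 and 68.04 CPM in flox hearts, without overlap on this scale. In shares of total counts its groups overlapped, at 0.001748% in cKO heart 3 and 0.001649% in flox heart 1. Ndufaf7, a methyltransferase of the mitochondrial matrix, had the smallest difference of the class, at a log2 fold change of -0.64 (SE 0.44, edgeR adjusted p = 0.5651). It was at 16.21, 24.17 and 15.61 CPM in cKO hearts, against 19.57, 20.60 and 47.06 CPM in flox hearts, and scaling to total counts alone turned its direction, to 0.14. Ndufaf2 was at 5.10, 11.24 and 7.65 CPM in cKO hearts, against 11.01, 10.87 and 44.64 CPM in flox hearts. As much as 63.2% of the 75-base words of Ndufaf2 occur in other genes, so its counts depend on how such reads were assigned. Without flox heart 3 and cKO heart 2, Ndufaf1, Ndufaf4 and Ndufaf6 were the 3 called, against 9.53% of all genes called lower.

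**Figure D3:**
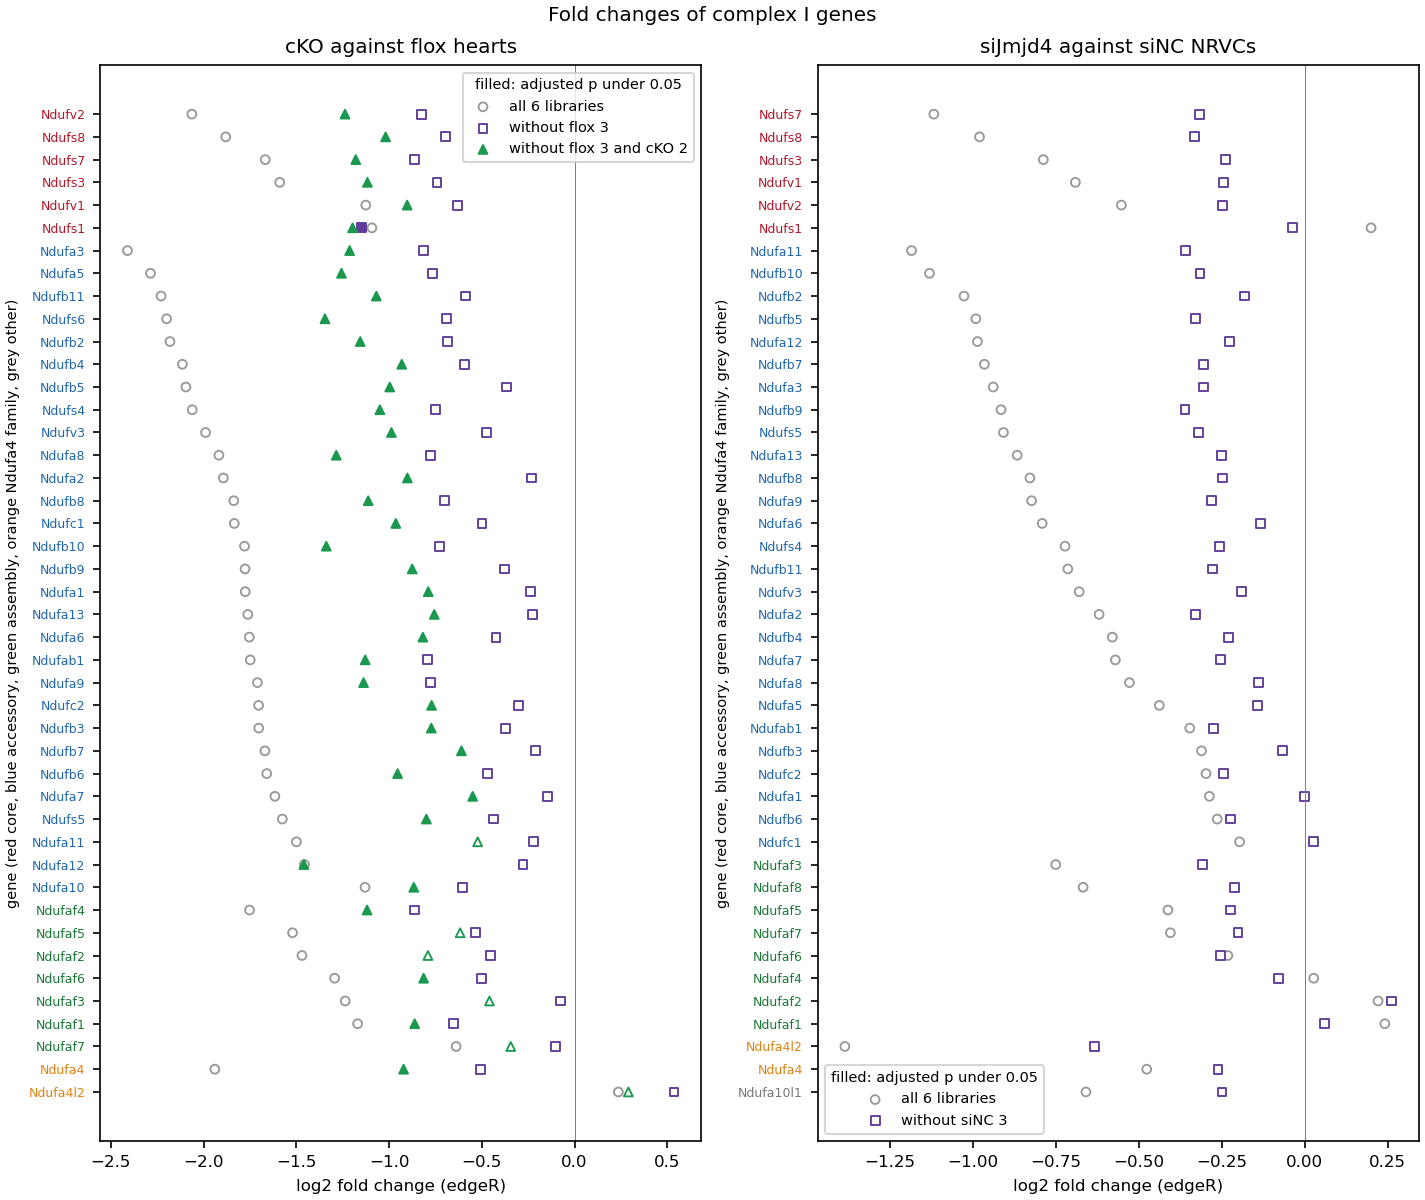
Log2 fold change (edgeR) of each complex I gene, for cKO over flox hearts (left) and siJmjd4 over siNC NRVCs (right), grouped by class (1 core subunit not shown), with symbols for the libraries used and filled symbols for an adjusted p under 0.05. In hearts Ndufs1 is filled without flox 3 and nearly every subunit without flox 3 and cKO 2, and in NRVCs none is filled.

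Ndufa4 and Ndufa4l2 carry complex I names, but Ndufa4 is now regarded as a subunit of complex IV, and Ndufa4l2 is its paralog, known as a gene induced by hypoxia. Ndufa4 was at 178.7, 339.3 and 166.2 CPM in cKO hearts, against 327.4, 322.5 and 1975 CPM in flox hearts. Its log2 fold change was -1.94 (SE 0.83, edgeR adjusted p = 0.3376), and -0.51 (SE 0.34) without flox heart 3. Ndufa4l2 was at 20.44, 35.46 and 25.91 CPM in cKO hearts, against 19.17, 18.46 and 31.85 CPM in flox hearts. It was the member with a higher fitted level in cKO hearts, at a log2 fold change of 0.24 (SE 0.36, edgeR adjusted p = 0.8326), and 0.54 (SE 0.26, edgeR adjusted p = 0.2837) without flox heart 3. Neither value passed the threshold, although without flox heart 3 its groups did not overlap, as held for 23.6% of all genes in the higher direction.

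Taken as a ratio within a library, there were 11.44, 10.45 and 15.59 counts of Ndufa4l2 per 100 counts of Ndufa4 in cKO hearts, against 5.856, 5.725 and 1.612 in flox hearts. The ratio did not overlap between the groups with or without flox heart 3. In the NRVCs the ratio was 0.669, 0.670 and 0.714 with siJmjd4 and 0.751, 1.00 and 1.83 with siNC, so its order between the groups was the opposite there. The ratio shows unequal differences of the pair and not which of them moved.

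Flox heart 3 differed from flox hearts 1 and 2 in a way that went with transcript length. Across the 45 members, the log2 ratio of flox heart 3 to flox hearts 1 and 2 had a median of 2.27 and a range from -0.19, for Ndufs1, to 2.98, for Ndufb5, with 44 above 0. The members' median transcript length was 870.5 bases, against 2654 bases over all 14283 tested genes with a length. Spearman's rho of the ratio with length was -0.61 across the members and -0.69 across those 14283 genes, a description, since these genes come from the same libraries. For the 1072 tested genes no longer than the members' median, the median log2 ratio was 1.58. Among these shorter genes rho was 0.06, so the relation with length was not seen within them. For cKO heart 2 over cKO hearts 1 and 3, the members' median was 0.94, with all 45 above 0 and a rho of -0.55. The same 1072 shorter genes had a median of 0.51 and a rho of 0.16 there. The core share of core and accessory counts moved with these ratios, at 33.83%, 26.92% and 30.93% in cKO hearts and 33.82%, 34.50% and 19.56% in flox hearts.

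With each library's trend with length taken out as an offset, 4 of 45 members were called lower by edgeR, against 4.09% of all genes, and the median log2 fold change was -1.26. In a fit with that correction and without flox heart 3, which was chosen after the data were seen, 19 members were called lower, against 8.91% of all genes, at a median of -0.81. These were 7 of 7 core subunits, 9 of 29 accessory subunits and 3 of 7 assembly factors.

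**Figure D4:**
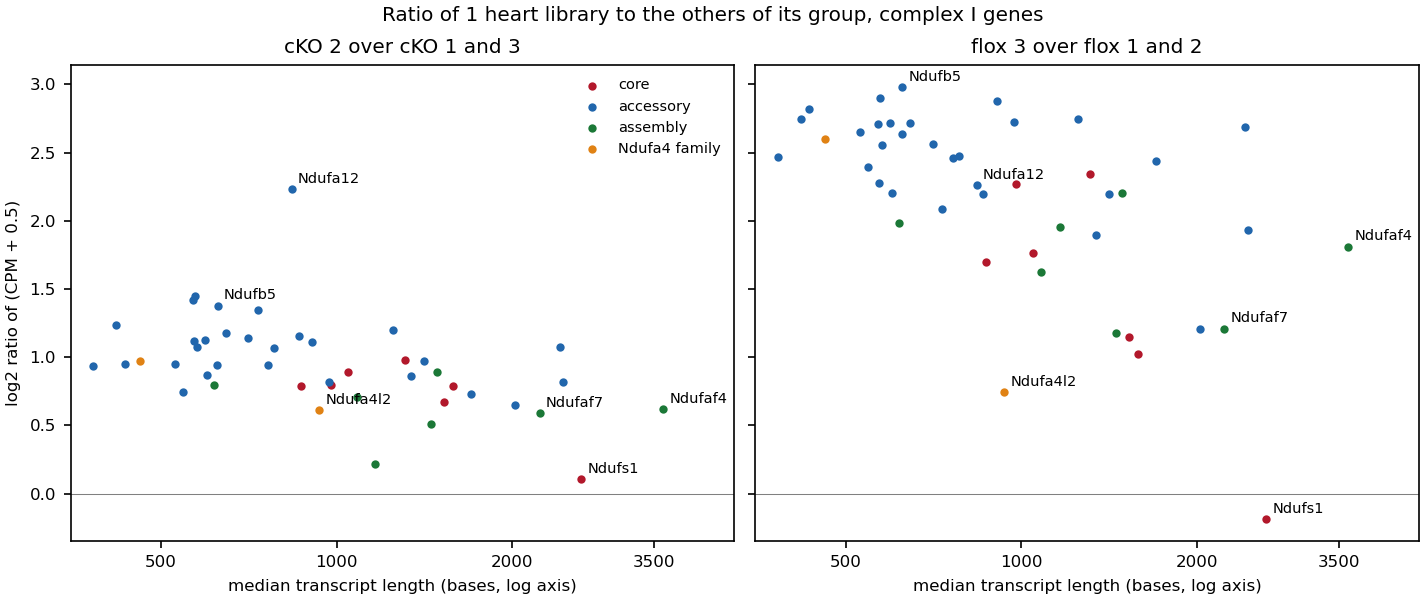
Log2 ratio of 1 heart library to the others of its group (CPM + 0.5) against median transcript length on a log axis, for the 45 complex I genes, with cKO 2 on the left and flox 3 on the right. Shorter transcripts tend to have higher ratios in both panels, and Ndufs1, among the longest, has the lowest ratio in both.

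The genes of complex I that the Nduf symbols do not cover lay in the same direction. The 7 subunits of the mitochondrial genome all had a lower fitted level in cKO hearts, with a median log2 fold change of -1.72. None was called by edgeR, and 5 were at an unadjusted p under 0.05. DESeq2 called 4 lower, against 4.37% of all genes. For mt-Nd5, a proton-pumping subunit, the levels were 12863, 8765 and 9322 CPM in cKO hearts, against 22362, 21343 and 32842 CPM in flox hearts, without overlap on this scale. In shares of total counts it was at 1.691%, 0.995% and 1.257% in cKO hearts, against 2.363%, 2.27% and 1.449% in flox hearts, and the groups overlapped through flox heart 3. Without flox heart 3 the median of the 7 was -0.83, again with none called and 7 at an unadjusted p under 0.05. Without flox heart 3 and cKO heart 2 all 7 were called lower, against 9.53% of all genes. Nuclear copies of mitochondrial DNA share reads with these genes.

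The 11 other assembly factors measured had lower fitted levels too, at a median log2 fold change of -0.995, and -0.58 without flox heart 3. edgeR called none of them in either fit, with 5 at an unadjusted p under 0.05 in all 6 hearts and 6 without flox heart 3. DESeq2 called 2 lower in all 6 hearts, against 4.37% of all genes. Nubpl, which delivers iron-sulfur clusters, had the lowest value at -1.49 (SE 0.55), and Acad9, of the same assembly complex as Ndufaf1, the highest at -0.22 (SE 0.27). Without flox heart 3 and cKO heart 2, 8 of these 11 were called lower, against 9.53% of all genes. In that fit the called members of the other respiratory complexes were 4 of 4 in complex II, 9 of 9 in complex III, 10 of 16 in complex IV and 15 of 15 in complex V, so that lower calls were shared with the other complexes.

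Promoters were looked at because the members lay in the same direction. RefSeq promoter windows on GRCm38.p6, from 250 bases before the gene start, matched 39 of the 45 mouse members; those with no entry included Ndufa2, Ndufa4l2, Ndufaf6, Ndufb9 and Ndufs1. NRF1 is a transcription factor known to bind promoters of many respiratory chain genes. Its letters, GCGCA and GCGC with 1 base between them on either strand, occurred in 7 of 39 member windows, or 17.9%, and in 3.86% of 27025 windows of all genes. Here and below, the windows of all genes were not limited to genes tested in the hearts, as the members were, so these shares come from unlike sets. The following 60 bases of each of these 7 windows, 5′ to 3′ on the gene's strand, show the first match in capitals.
Ndufa5 (chr6:24527682-24527741, minus strand): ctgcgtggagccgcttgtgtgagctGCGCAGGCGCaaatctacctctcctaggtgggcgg
Ndufa8 (chr2:36049339-36049398, minus strand): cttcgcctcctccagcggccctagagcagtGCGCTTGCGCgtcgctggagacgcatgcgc
Ndufa11 (chr17:56717677-56717736, plus strand): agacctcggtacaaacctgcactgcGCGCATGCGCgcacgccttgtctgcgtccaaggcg
Ndufaf4 (chr4:24897945-24898004, plus strand): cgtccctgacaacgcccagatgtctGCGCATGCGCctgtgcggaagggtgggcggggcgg
Ndufb4 (chr16:37654525-37654584, minus strand): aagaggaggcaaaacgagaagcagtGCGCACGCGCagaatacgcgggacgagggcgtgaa
Ndufs5 (chr4:123718250-123718309, minus strand): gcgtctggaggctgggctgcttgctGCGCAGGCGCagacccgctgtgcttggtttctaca
Ndufs6 (chr13:73328483-73328542, minus strand): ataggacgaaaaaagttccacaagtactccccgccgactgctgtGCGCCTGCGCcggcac

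The 7 genes with these letters had a median log2 fold change of -0.69 without flox heart 3, and the 32 without them of -0.52. In the fit of all 6 hearts the medians were -1.92 and -1.73, so genes with and without the letters lay on the same side. Of the other motifs searched on both strands, TNAAGGTCA, bound by estrogen-related receptors, was in 2.56% of member windows and 1.14% of all windows. The letters of YY1, AA and ATGGCGG with 1 base between them, were in none of the members' and 0.507% of all windows. CCGGAAG, of the ETS family, was in 10.3% and 7.05%, and GGGGCGGGG, of SP factors, in 12.8% and 10.5%. TATAAA was in 10.3% of member windows and 13% of all windows. A match is a run of letters and does not show that a factor was bound.

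The second comparison asked the same of NRVCs after siJmjd4. Members summed to 3768, 3330 and 3010 CPM with siJmjd4, against 3861, 4103 and 8264 CPM with siNC, so that siNC library 3 stood far above the rest and the other 5 lay within a narrow band. Of the 45 members tested, 41 had a lower fitted level with siJmjd4, and Ndufs1, Ndufaf1, Ndufaf2 and Ndufaf4 a higher one, while 11 of 44 were higher with the correction for transcript length. None was called by edgeR in either direction, 2 had an unadjusted p under 0.05, and 0% of the 15497 genes tested were called lower and 0.00645% higher. DESeq2 called none of the members either, with 0.206% of all genes called lower and 0.878% higher. The members' median log2 fold change was -0.67, against 0.01 over all genes. Without siNC library 3 it was -0.25, with 42 lower values, none called by edgeR and 18 at an unadjusted p under 0.05, and 0.0823% of all genes were called lower and 0.487% higher. Of the 45 members, 24 were lower without overlap and 1, Ndufaf2, was higher, where 17.8% and 22.4% of all genes were lower and higher without overlap. The counts of members were the same without siNC library 3, where 20.4% and 24.5% of all genes were. In shares of total counts 19 members were lower and none higher without overlap, where 15.3% of all genes were lower, and 24 without siNC library 3, where 20.3% were.

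Among the core subunits, Ndufs7 had the lowest log2 fold change, at -1.12 (SE 0.49, edgeR adjusted p = 0.379), and -0.32 (SE 0.09, edgeR adjusted p = 0.09324) without siNC library 3. It was at 72.31, 70.34 and 60.52 CPM with siJmjd4, against 82.41, 86.74 and 272.0 CPM with siNC, and these did not overlap. Ndufs1 was at 184.9, 177.4 and 169.1 CPM with siJmjd4, against 183.6, 180.0 and 99.18 CPM with siNC. Its groups overlapped, and without siNC library 3 its log2 fold change was -0.04 (SE 0.07). Ndufv1, Ndufv2, Ndufs3 and Ndufs8 had log2 fold changes from -0.24 to -0.33 without siNC library 3. Ndufv1 was at 207.9, 178.1 and 169.9 CPM with siJmjd4, against 212.0, 227.6 and 458.1 CPM with siNC. Ndufv2 was at 129.1, 113.2 and 109.2 CPM with siJmjd4, against 137.7, 140.8 and 237.1 CPM with siNC. Both flavoprotein genes were lower in every siJmjd4 library than in every siNC library, by a margin smaller than the gap between siNC library 3 and its group. Ndufs3 was at 82.89, 72.85 and 61.05 CPM with siJmjd4, against 89.51, 81.15 and 203.7 CPM with siNC. Ndufs8 was at 75.87, 66.57 and 57.98 CPM with siJmjd4, against 85.42, 83.06 and 227.0 CPM with siNC. Ndufs3 overlapped between the groups and Ndufs8 did not.

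The 27 accessory subunits tested in NRVCs had a median log2 fold change of -0.72, and -0.25 without siNC library 3. Ndufa11 was lowest at -1.19 (SE 0.50), with 139.8, 113.9 and 104.8 CPM under siJmjd4, against 154.4, 152.5 and 508.3 CPM under siNC. Ndufb10 followed at -1.13 (SE 0.50), with 80.61, 69.87 and 61.62 CPM under siJmjd4, against 83.20, 93.13 and 288.2 CPM under siNC. Both were lower in every siJmjd4 library, and without siNC library 3 their log2 fold changes were -0.36 (SE 0.12) and -0.32 (SE 0.12). Ndufc1 was highest at -0.20 (SE 0.29), with 20.79, 18.02 and 15.92 CPM under siJmjd4, against 13.05, 22.92 and 26.77 CPM under siNC. Ndufb6 was next at -0.26 (SE 0.14), with 62.84, 63.20 and 55.17 CPM under siJmjd4, against 68.77, 72.44 and 76.40 CPM under siNC, where siNC library 3 lay close to its group. Ndufs6, named after its values were seen, had 6, 4 and 6 counts with siJmjd4 and 0, 0 and 0 counts with siNC, too few to be tested in a table whose other accessory subunits had at least 13.05 CPM in every library. Ndufa10l1, a rat symbol likewise named after its values were seen, was at 126.5, 108.2 and 104.6 CPM with siJmjd4, against 137.0, 132.3 and 266.8 CPM with siNC.

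The 8 assembly factors in NRVCs did not all lie in the same direction. Their median log2 fold change was -0.32, and -0.21 without siNC library 3. Ndufaf3 was at 25.13, 24.86 and 22.76 CPM with siJmjd4, against 28.99, 31.17 and 62.26 CPM with siNC. Ndufaf8, a partner of Ndufaf5, was at 16.72, 17.40 and 13.99 CPM with siJmjd4, against 18.44, 18.76 and 39.27 CPM with siNC. These were the lowest of the class, at log2 fold changes of -0.75 (SE 0.32) and -0.67 (SE 0.34), both without overlap between the groups. Ndufaf2 was at 4.33, 3.98 and 3.89 CPM with siJmjd4, against 3.80, 3.00 and 3.68 CPM with siNC. Ndufaf1 was at 10.47, 11.31 and 10.92 CPM with siJmjd4, against 10.69, 10.23 and 6.74 CPM with siNC. Their log2 fold changes were 0.22 (SE 0.22) and 0.24 (SE 0.23), and siNC library 3 was the lowest library for Ndufaf1. Ndufa4 was at a log2 fold change of -0.48 (SE 0.21), and Ndufa4l2 at -1.39 (SE 0.53, edgeR adjusted p = 0.379), with 1.32, 1.13 and 1.13 CPM under siJmjd4, against 1.47, 2.24 and 5.66 CPM under siNC. Without siNC library 3 they were at -0.26 (SE 0.10) and -0.63 (SE 0.31). The correction for transcript length turned Ndufa4 to 0.0632 (SE 0.16) and put Ndufa4l2 at -0.86 (SE 0.35).

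The 7 mitochondrial subunits in NRVCs had a median log2 fold change of -0.32, with 5 lower, 2 higher, none called by edgeR or DESeq2 and none at an unadjusted p under 0.05 in edgeR. Mt-nd4l was highest at 0.74, with 406.8, 392.2 and 478.7 CPM under siJmjd4, against 382.8, 318.8 and 63.3 CPM under siNC, where siNC library 3 set the difference. The 13 other assembly factors measured had a median of -0.12, with none called by edgeR or DESeq2 and none at an unadjusted p under 0.05 in edgeR.

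The third comparison tested whether the difference in hearts and that in NRVCs were unequal, as the log2 fold change of cKO over flox minus that of siJmjd4 over siNC, in 1 model of genes paired by symbol. Of 44 paired members, none was called by edgeR with all 12 libraries, 6 had an unadjusted p under 0.05 and the median difference was -1.11, while 0.341% of 13482 genes were called lower and 1.34% higher. Without flox heart 3 and siNC library 3, 1 member was called, against 5.68% of genes called lower and 7.16% called higher, and the median difference was -0.34. It was Ndufs1, with a difference of -1.12 (SE 0.19, edgeR adjusted p = 0.006023), a call not made with all 12 libraries, where it was -1.29 (SE 0.40, edgeR adjusted p = 0.1366). Ndufa4l2 had the highest difference, at 1.16 (SE 0.36, edgeR adjusted p = 0.06187) without those 2 libraries and 1.63 (SE 0.63, edgeR adjusted p = 0.2344) with them. The assembly factors Ndufaf1 and Ndufaf4 had differences of -0.72 (SE 0.25) and -0.79 (SE 0.28) without them, neither past the threshold. Ndufs6 entered this model through the hearts alone, and no difference is given for it. It is still counted among the 44 paired members and among the 6 at an unadjusted p under 0.05.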

How the data were processed

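RNA was sequenced from total RNA extracted with TRIzol, and made into Illumina libraries, per the labels' protocols. The authors deposited 1 table of raw whole-number counts by gene symbol for each species. Per the submitters' processing notes, which give no roles, edgeR 3.20.9, HISAT2 2.1.0 and StringTie 1.3.4 were among the tools, with the builds mm10 (mouse) and rn6 (rat). The sources used here do not give how reads were counted, the strand setting or the annotation.

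Each table was filtered with edgeR's filterByExpr, scaled by TMM and fitted with a robust quasi-likelihood model (edgeR 4.0.16, R 4.3.3), with group as the only term. The test was two-sided, and a gene was called at an adjusted p under 0.05 (Benjamini-Hochberg, all tested genes). SD is over libraries, and SE comes from the quasi-likelihood F statistic. Differences between the systems were tested in 1 model of all 12 libraries. Simulated counts with 200 changed genes were used to check the fits. They held no library that stood apart and no trend with transcript length, so they do not cover these features of the data. DESeq2 1.42.0 was an alternative, and others are given in the closing section. In the correction for transcript length, each library's trend (loess, span 0.3) was an offset, with GENCODE M21 lengths on GRCm38 by symbol, for rat genes too. Shared sequence was counted in 75-base words of transcripts.

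Members, classes and lists were chosen with earlier results of these data known. The naming rule took core subunits, called members, the 2 highest and 2 lowest fold changes of larger classes in each system, and the Ndufa4 pair; 1 core subunit is counted in its class but not reported here by name. Replicate numbers were taken from the labels.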

Additional observations from a re-analysis of the deposited data

Results flagged for a closer look

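Ndufs1 differed between the systems only in the fit without flox replicate 3 and siNC replicate 3. There its log2 fold change of cKO over flox hearts minus that of siJmjd4 over siNC NRVCs was -1.12 (SE 0.19, edgeR adjusted p = 0.006023), and with all 12 libraries it was -1.29 (SE 0.40, edgeR adjusted p = 0.1366), which was not called. In TMM-scaled CPM it was lower in 3 of 3 cKO hearts than in any flox heart, while the siJmjd4 and siNC libraries overlapped. In shares of total counts flox replicate 3, at 0.0248%, lay below the cKO hearts, at 0.0343% to 0.0392%, and scaling to total counts alone gave a heart log2 fold change of -0.56 (SE 0.45, edgeR adjusted p = 0.5973). Ndufs1 has a median transcript length of 2625.5 bases, against 870.5 bases for the median member. With the correction for transcript length, its log2 fold change was -1.34 (SE 0.24, edgeR adjusted p = 0.02184) in hearts and 0.14 (SE 0.21, edgeR adjusted p = 0.6948) in NRVCs. With that correction and without the same control libraries it was -1.29 (SE 0.19, edgeR adjusted p = 0.004413) in hearts and -0.0618 (SE 0.0647, edgeR adjusted p = 0.6177) in NRVCs. The difference between the systems was not fitted with that correction.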

How the results depend on the processing

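In hearts, leaving out 1 library gave 0 to 1 members called lower, with flox replicate 3 the one that gave 1, and median log2 fold changes from -2.12 to -0.53 over all members, -1.94 to -0.74 in the core, -2.28 to -0.47 in accessory subunits and -1.58 to -0.50 in assembly factors. Over all genes, 2.93% were called lower without flox replicate 3 and 0% in each other fit without 1 heart library. DESeq2's Wald test called 7 members lower, against 4.37% of all genes, and the length correction 4, against 4.09%. Leaving out both flox replicate 3 and cKO replicate 2 called 39, against 9.53%. The length correction without flox replicate 3 called 19, against 8.91%. Scaling to total counts alone moved the median of all genes to 0.54 and gave medians of -0.71 in the core and -0.43 in assembly factors, and turned Ndufaf7 to 0.14. In NRVCs, leaving out 1 library gave 0 members called lower and medians from -0.85 to -0.25 over all members, -0.88 to -0.24 in the core, -0.92 to -0.25 in accessory subunits and -0.37 to -0.21 in assembly factors. Over all genes, 0.0823% were called lower without siNC replicate 3 and 0% in each other fit without 1 NRVC library. With the length correction the core median in NRVCs was -0.35 and the assembly median -0.0798. With that correction and without siNC replicate 3 the medians were -0.12 over all members, -0.14 in the core, -0.12 in accessory subunits and -0.11 in assembly factors. Among genes named in NRVCs, the length correction turned the log2 fold change of Ndufa4 to 0.0632, Ndufa5 to 0.11, Ndufb6 to 0.20, Ndufc1 to 0.27 and Ndufaf4 to -0.25. Leaving out 1 library gave -0.0782 to 0.10 for Ndufaf4, -0.44 to 0.0249 for Ndufc1 and -0.0362 to 0.35 for Ndufs1, the sign turning without siNC replicate 3 for each and, at -0.0049, without siJmjd4 replicate 2 for Ndufaf4. With siNC replicate 3 left out and the correction as well, Ndufa5 was at 0.0465, Ndufaf4 at -0.20, Ndufc1 at 0.20 and Ndufs1 at -0.0618. For the difference between the systems, 1 member was called without flox replicate 3 and siNC replicate 3, against 5.68% of all genes called lower and 7.16% higher. The cause of these changes was not tested. Deviations of same-numbered replicates from their group means had correlations of 0.357, -0.479 and -0.331 in hearts and -0.142, -0.0188 and -0.15 in NRVCs. With 3 libraries per group, some of which stand apart, these values cannot show whether the numbers pair the samples. The fit with the replicate number as a block called 0 members in hearts, in NRVCs and for the difference, with medians of -1.31 and -0.58. In each of these fits 0% of all genes were called lower.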
